A study of Drosophila melanogaster with 3 samples.

Results

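The 34 genes described here encode proteins of the presynaptic active zone, the vesicle fusion machinery, the synaptotagmins, other synaptic vesicle proteins, the machinery of vesicle endocytosis and a pair of synaptic scaffolds. They were chosen by name for their roles, from 17684 annotated genes on the 6 chromosomes with peaks, with earlier results of these data known. The rule itself uses no score, but the choice was not independent of the data. The measurement was Targeted DamID of the homeodomain transcription factor Bsh in L4 neurons, a type of lamina neuron in the fly optic lobe. In this assay Bsh is fused to the bacterial Dam methylase, which marks GATC sites close to where the fusion protein sits on the DNA. The data are 3 biological replicates of a single group. All of them carried temperature-sensitive Gal80 (tubP-GAL80[ts]), the driver 31C06-Gal4, a UAS-myristoylated-tdTomato reporter and the UAS-driven Bsh:Dam transgene, and the fusion was switched on from 46 to 76 hr after puparium formation, while L4 neurons form synapses. Laminae of several pupae were pooled for each sample, and the signal comes from the cells in which the driver was active. Bsh:Dam was expressed in addition to the native protein. There is no second condition, and Dam-only libraries were not analysed here, so nothing was compared between conditions. Peak lists hold no RNA levels, so the cell type could not be checked against marker genes.

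For each replicate the deposited data give a list of peaks with a score, and a list of genes lying within 1 kb of a peak. A score ranks peaks of the ratio of Bsh:Dam to Dam and has no unit. A gene is described as listed when it has a line in the gene list, and as called when its highest score was above 2.5, the threshold used in the study, in all 3 replicates. The lists hold 2834, 2838 and 2891 peaks with median scores of 2.98, 3.08 and 2.77 in replicates 1, 2 and 3, so scores in the replicate 3 list tend to be lower. Read counts were not analysed, the depth behind a peak is unknown here, and the spread over 3 replicates is the only error that can be given. With 3 replicates, an exact two-sided permutation test of paired differences cannot give a p below 0.25, and no test was run between genes or roles. A gene without a line has no called peak in that list, and weaker signal there cannot be assessed. Positions are those of the peak lists, which name no genome build.

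Synaptic transmission depends on an ordered cycle. Vesicles are held at the active zone by scaffold proteins, primed, and fused with the plasma membrane by SNARE proteins when synaptotagmins sense calcium, and the membrane is then recovered by endocytosis. Many of these genes are expressed by neurons in general and not by L4 alone.

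Of the 34 genes, 13 (38.2%) were called and 17 (50%) were listed at any score in all 3 replicates. Over all annotated genes these shares were 9.74% and 13.2%. A further 3 genes (Sytalpha, Sytbeta and CASK) were listed in some replicates only, and 14 were listed in none. By replicate, 16, 18 and 14 of the genes scored above 2.5, against 2133, 2200 and 1886 of the 17684 annotated genes. The called genes had a median score of 3.53 (the median of each gene's mean over replicates), and all 1723 called genes had a median of 3.46.

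The peaks were distributed unevenly over the roles. Among active zone genes 6 of 8 (75.0%) were called, among vesicle-associated genes 2 of 4, among scaffolds of the guanylate kinase family 1 of 2, among endocytosis genes 2 of 8 (25%), among synaptotagmins 1 of 5 (20%) and among SNARE and fusion genes 1 of 7 (14.3%). In every replicate the active zone had more genes above 2.5 (6, 7 and 6 of 8) than the SNARE and fusion genes (2, 2 and 1 of 7) or the endocytosis genes (2, 2 and 2 of 8). Without replicate 3, the SNARE and fusion genes gained Syx1A and the synaptotagmins gained Sytbeta, which gave 2 called genes in each. Whether the roles differ was not tested.

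**Figure D1:**
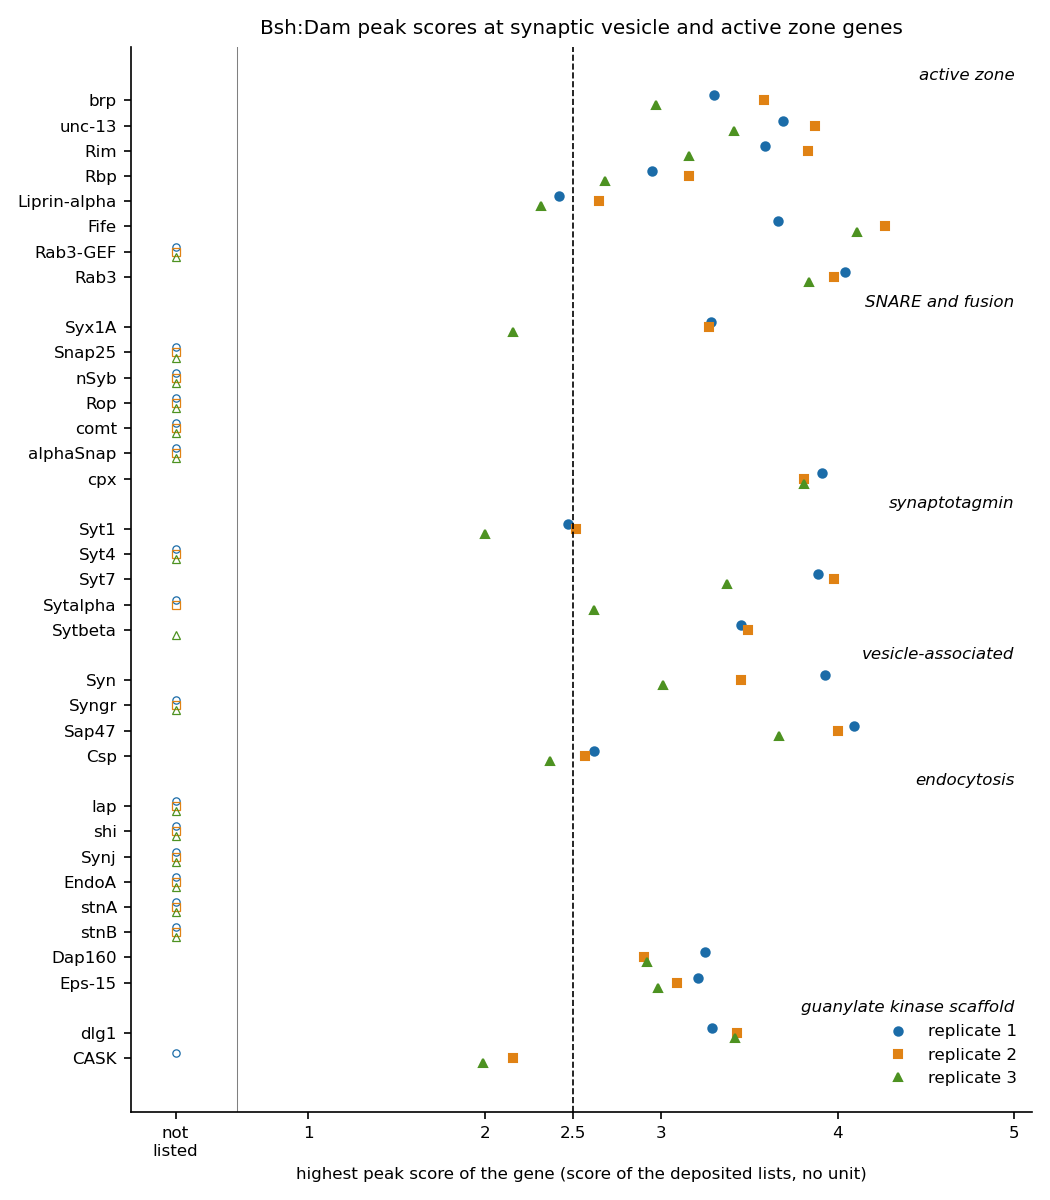
Highest peak score of each of the 34 genes (x axis, no unit) in replicates 1, 2 and 3 (circles, squares and triangles), grouped by role, with genes without a line at the left and the threshold of 2.5 dashed. Most active zone genes lie right of the threshold in every replicate, from 2.68 for Rbp to 4.27 for Fife, whereas 5 of 7 SNARE and fusion genes and 6 of 8 endocytosis genes have no line.

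The share of all annotated genes that were called was 5.14% for genes under 5 kb, 15.6% from 5 to 10 kb, 25.7% from 10 to 20 kb, 38.3% from 20 to 40 kb and 59.2% at 40 kb or more. The genes described here were called in 0 of 7, 3 of 7, 0 of 3, 6 of 11 and 4 of 6 cases in the same classes. For the longest class the share of 66.7% was near that of all genes of this length. From 5 to 10 kb and from 20 to 40 kb the shares of 42.9% and 54.5% were above those of all genes. Under 5 kb and from 10 to 20 kb the shares of 0% were below them. The part that length plays in the difference between roles was not tested. The median length was 32855 bp for the active zone genes, 10928 bp for the endocytosis genes and 4164 bp for the SNARE and fusion genes, against 1710 bp for all annotated genes. The synaptotagmins had a median of 27653 bp with 1 of 5 called, and the vesicle-associated genes 16694 bp with 2 of 4 called. The scaffold genes had a median of 39693 bp. In the class from 5 to 10 kb the called genes were Rab3, Dap160 and Eps-15, and the others were Liprin-alpha, nSyb, Csp and Synj. Snap25, with 225026 bp the longest of the genes, had no line in any list.

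**Figure D2:**
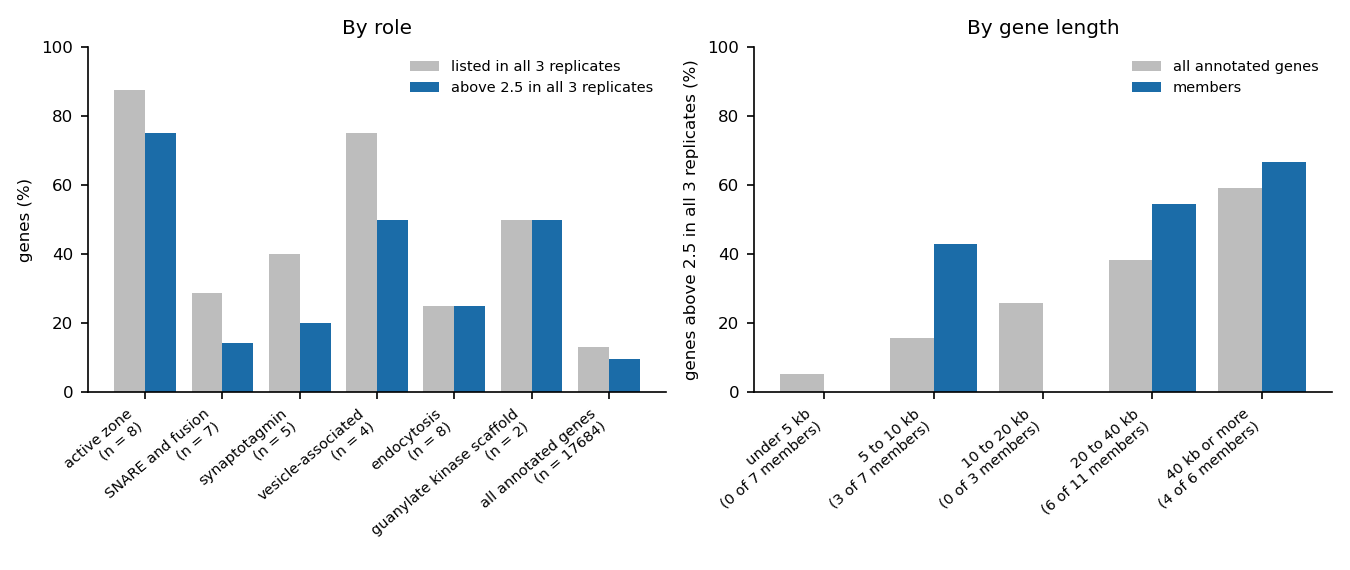
Left, percent of genes of each role listed (grey) and called (blue) in all 3 replicates, beside all annotated genes. Right, percent called by gene length for all annotated genes (grey) and for the genes described here (blue), which rises from 5.14% to 59.2% over all genes and shows no called member under 5 kb or from 10 to 20 kb.

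The active zone gene with the highest mean score was Fife, a relative of the vertebrate Piccolo and RIM scaffolds. It scored 3.66 in replicate 1, 4.27 in replicate 2 and 4.11 in replicate 3, with a mean of 4.01 ± 0.316 (SD, n = 3). In rank it equalled or exceeded 73.5%, 93.9% and 93.5% of the genes listed in the respective replicate. The peak lies inside the gene on chromosome 3L, 17.6 kb from the nearer border (18.2 kb in replicate 2) and within 1 kb of no other gene. It spans 2217 bp in replicate 1, where the score was lowest, and 690 and 1255 bp in replicates 2 and 3. A broader peak of 4137 and 3897 bp in the same gene scored 1.69 and 1.90 in replicates 1 and 2 and was not called in replicate 3.

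Rab3, the small GTPase of synaptic vesicles, scored 4.04, 3.98 and 3.84 (mean 3.95 ± 0.103, SD, n = 3). Its mean lay within the SD of Fife, and Rab3 was the higher of the pair in replicate 1 and in the means without replicate 2 (3.94 against 3.89) or without replicate 3 (4.01 against 3.96). These scores were close in all replicates, and stood at or above 88.6%, 85.9% and 86.9% of the listed genes. Rab3 is only 7869 bp long, and its peak of 1010 bp on chromosome 2R, from 10724174 to 10725183, had identical borders in the 3 lists. The gene CAH13 also lies within 1 kb of this peak.

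The gene unc-13 encodes the vesicle priming factor. It had a single peak, on chromosome 4 from 892315 to 893979, with the same borders in every list and scores of 3.69, 3.87 and 3.41 (mean 3.66 ± 0.232, SD, n = 3). The peak lies 18.4 kb inside the gene and near no other gene. All values were well above the threshold, and replicate 3 was the lowest.

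Rim, a scaffold that links vesicles to calcium channels, had the most peaks of the active zone genes, summed over replicates. Its lists hold 5, 4 and 4 lines, and 3 of the loci scored above 2.5 in all 3 replicates. The highest, on chromosome 3R, lay 2.1 kb from a gene border in replicate 1 and 0.6 kb in replicates 2 and 3. It scored 3.59, 3.83 and 3.16 (mean 3.53 ± 0.339, SD, n = 3) and also lies within 1 kb of CG43445. Almost level with it was a peak deep in the gene, 13.3 kb from the nearer border, with 3.58, 3.74 and 3.02 (mean 3.45 ± 0.378) and no other gene nearby. The means of these loci differ by less than the SD of either. The remaining locus lies 0.7 kb outside Rim (0.9 kb in replicate 2), is shared with tinc, and scored 2.90, 2.84 and 2.73.

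Bruchpilot, encoded by brp, is the core scaffold of the fly active zone and a common marker of presynaptic sites. Its best peak scored 3.30, 3.58 and 2.97 (mean 3.28 ± 0.305, SD, n = 3), at or above 57.5%, 67.4% and 55.0% of the listed genes and so near the middle of the lists. This peak, from 9511210 to 9516692 on chromosome 2R, is 5483 bp long, has the same borders in all lists and lies near no other gene. Another peak, 0.3 kb inside the gene and within 1 kb of Wnt2, scored 3.20, 3.34 and 2.84. Weaker peaks of 1.93 to 2.21 were found in replicates 1 and 3 only.

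Rbp, the RIM-binding protein, was the called gene with the lowest mean (2.93 ± 0.241, SD, n = 3). It had a peak close to each end. The one 0.2 kb inside the gene, near Ccm3, scored 2.94, 3.16 and 2.68, and the one crossing the other border, near CG6125, scored 2.95, 2.62 and 2.42. The latter fell under 2.5 in replicate 3, so the call rests on the former.

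Liprin-alpha and Rab3-GEF were the active zone genes that were not called. Liprin-alpha, which acts early in active zone assembly, had scores of 2.42, 2.65 and 2.32 (mean 2.46 ± 0.169, SD, n = 3), on both sides of the threshold. The peak lies 0.2 kb outside the gene and is shared with homer. Rab3-GEF, the exchange factor of Rab3, had no line. The nearest peak was 122 kb away in replicates 1 and 2, and 26.0 kb away with a score of 1.84 in replicate 3.

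**Figure D3:**
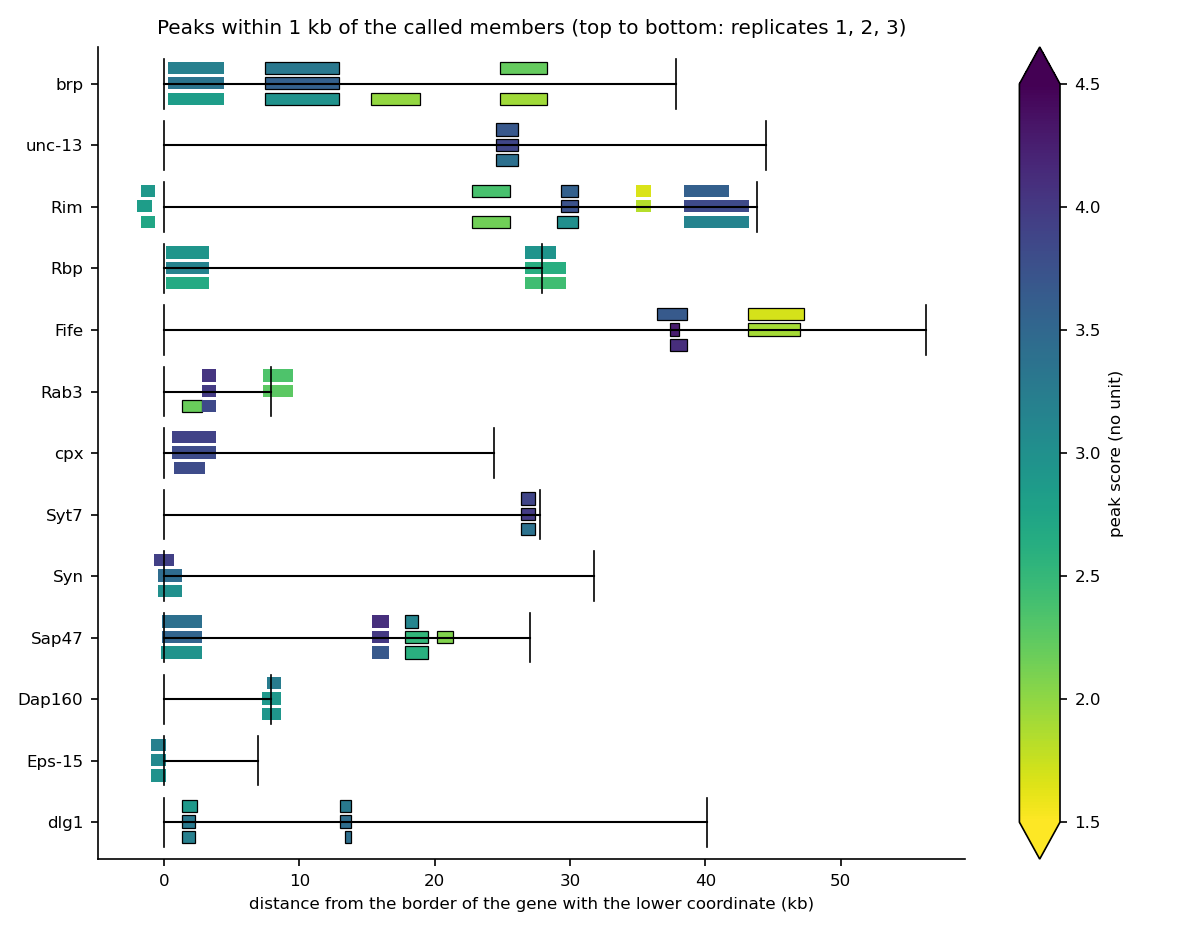
Peaks within 1 kb of the 13 called genes, drawn from the gene border with the lower coordinate (x axis, kb), with rows from top to bottom for replicates 1, 2 and 3. Colour gives the score, vertical bars the gene borders, and a black outline marks a peak near no other annotated gene, as in unc-13, Fife, Syt7 and dlg1.

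Among SNARE and fusion genes, cpx alone was called. Complexin, its product, binds the assembled SNARE complex and holds back spontaneous release. The scores of 3.91, 3.81 and 3.81 (mean 3.84 ± 0.0577, SD, n = 3) had the smallest SD of the 13 called genes. The peak lies 0.6 kb inside the gene (0.8 kb in replicate 3), on 3R, and the only other gene within 1 kb is lncRNA:CR45597.

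Syx1A, the plasma membrane SNARE syntaxin, was above 2.5 in replicates 1 and 2 but not in replicate 3. It scored 3.28, 3.27 and 2.16 (mean 2.90 ± 0.644, SD, n = 3), the widest spread among the 17 genes listed in every replicate. In replicates 1 and 2 the peak crosses a gene border on 3R from 24099811 to 24101797 and is 1987 bp long. In replicate 3 the overlapping peak starts at 24089929 and is 11785 bp long. It is the only peak of 10 kb or more in the 3 lists, which hold 34, 32 and 32 peaks of 5 kb or more. Such broad peaks had median scores of 2.42, 2.40 and 2.09, against 3.0, 3.09 and 2.78 for the shorter ones. Whether the low score of Syx1A in replicate 3 follows from the breadth of its peak was not tested. The peak is shared with eIF4EHP.

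The other 5 genes of this role had no line in any replicate. They are Snap25, the partner of syntaxin on the plasma membrane, nSyb, the vesicle SNARE synaptobrevin, Rop, the fly Sec1/Munc18 protein, comt, the NSF ATPase that takes SNARE complexes apart, and alphaSnap, its adaptor. All 3 core SNARE genes therefore lacked a call, with syntaxin the only one listed.

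Synaptotagmins are calcium sensors of vesicle release. Syt7 was the called member of this group, with 3.89, 3.98 and 3.37 (mean 3.75 ± 0.329, SD, n = 3). Its 1051 bp peak, on chromosome 4 from 305074 to 306124, had the same borders in all lists, lies inside the gene 0.4 kb from a border, and is near no other gene. Syt1, the sensor of fast synchronous release, was listed in every replicate but scored only 2.47, 2.52 and 2.00 (mean 2.33 ± 0.287, SD, n = 3), at or above 20.6%, 18.6% and 10.2% of the listed genes. That peak is 575 bp long and lies 0.7 kb outside the gene.

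The lists disagreed for the remaining synaptotagmins. Sytbeta scored 3.45 and 3.49 in replicates 1 and 2 and had no line in replicate 3, where the nearest peak was 8.32 kb away. It is the highest score among loci missing from a replicate. Sytalpha had a line in replicate 3 only, with 2.62. Syt4 had no line, and the nearest peaks were 16.1, 175 and 16.7 kb away.

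Among vesicle-associated proteins, Sap47, a synapse-associated protein, had 3 loci above 2.5 in all replicates. The highest scored 4.09, 4.00 and 3.67 (mean 3.92 ± 0.221, SD, n = 3), on 3R from 15950427 to 15951717 with identical borders, and has CG31088 and CG46383 within 1 kb. A locus that crosses a border of the gene, near blp, scored 3.40, 3.55 and 2.96. The third lies near no other gene and scored 3.13, 2.53 and 2.6, close to the threshold in replicates 2 and 3.

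Syn encodes synapsin, which tethers vesicles in the reserve pool. Its peak crosses a gene border near CG12814 and scored 3.93, 3.45 and 3.01 (mean 3.46 ± 0.46, SD, n = 3), the widest spread of the called genes. Its rank varied as well, at or above 84.6%, 61.9% and 56.7% of the listed genes. Csp, the cysteine string protein chaperone, scored 2.62, 2.57 and 2.37 (mean 2.52 ± 0.132, SD, n = 3) and missed the call in replicate 3. Syngr, or synaptogyrin, a membrane protein of the vesicle, had no line.

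In endocytosis, the called genes encode partner scaffolds. Dap160 is the fly intersectin, and scored 3.25, 2.90 and 2.92 (mean 3.02 ± 0.197, SD, n = 3). Eps-15, which binds it, scored 3.21, 3.09 and 2.98 (mean 3.09 ± 0.115, SD, n = 3). These values overlap and lie under the median of 3.46 for called genes. Both peaks cross a gene border and are shared, the former with pths and snoRNA:Me18S-A469 and the latter with CG3894 and GstE12, so neither can be assigned to the endocytosis gene alone.

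The other 6 of the 8 endocytosis genes had no line. These are shi (dynamin), Synj (synaptojanin), EndoA (endophilin), lap (the clathrin adaptor AP180), and stnA and stnB. The last pair encodes the stoned proteins from a shared transcript and has the same annotated span, so the 34 genes occupy 33 distinct spans. This pair is a single locus without a peak, but the counts given here treat stnA and stnB as separate genes.

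The scaffold dlg1 (Discs large) scored 3.29, 3.43 and 3.42 (mean 3.38 ± 0.0781, SD, n = 3) in a peak 13 kb inside the gene (13.4 kb in replicate 3) on X. A second locus, 1.3 kb from a border, scored 2.89, 3.29 and 3.20, and neither lies near another gene. Unlike most of the genes, dlg1 was not lowest in replicate 3. CASK, a kinase-like scaffold, had no line in replicate 1, and in replicates 2 and 3 had different peaks of 2.16 and 1.99 that do not overlap.

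Together, 38 loci lay within 1 kb of 20 of the genes. Of these, 25 were found in all 3 replicates, 19 of them above 2.5 each time, and 10 had identical borders in the 3 lists. By replicate, 80.6%, 78.1% and 80.6% of the 31, 32 and 31 peaks shared at least 1 bp with peaks in each of the other lists (mean 79.8% ± 1.46, SD, n = 3). Over all peaks this mean was 82.9% ± 0.93. Scores were lowest in replicate 3 for 13 of the 17 genes listed throughout (76.5%) and for 69.0% of all genes so listed. The replicate 3 score lay under the mean of replicates 1 and 2, with a median difference of −0.37 for these genes and −0.20 for all.

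The position of the peaks relative to the genes was set beside that of all called genes, without a test. A peak above 2.5 held a gene border in all replicates in 4 of 13 called genes (30.8%), namely Dap160, Eps-15, Sap47 and Syn, and in 26.5% of all called genes. Within 1 kb of a border these shares were 69.2% and 66.0%. The annotation used gives no strand, so which border is the start of the gene is not known here. A peak above 2.5 near no other annotated gene was present in all replicates in 7 of 13 (Fife, Rim, Sap47, Syt7, brp, dlg1 and unc-13), or 53.8%, against 40.1% of all called genes. For Rbp, Rab3, cpx, Syn, Dap160 and Eps-15 every call rests on a peak shared with a neighbour.

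Some peaks lay close to the edge of the 1 kb window. Just inside it were the peak of Syt1 at 0.7 kb and the outer peak of Rim at 0.7 to 0.9 kb, without which Rim was still called. Just outside it were Sytalpha, with a peak 1.87 kb away in replicates 1 and 2 (3.15 and 2.97), and 4 of the 14 unlisted genes, which had a peak within 5 kb in every replicate. A peak near GC and CG13928 lay 2.94 kb from nSyb and scored 4.08, 4.09 and 4.01. Among the 13 called genes, only Sap47 in replicate 1 and Fife in replicates 2 and 3 scored higher. The peak closest to EndoA, near Xrp1, scored 3.14, 3.13 and 3.05 at 2.73, 2.73 and 3.42 kb. For shi a peak near CycD and Lrp4 scored 4.20 and 4.29 in replicates 1 and 2 at 3.63 kb, while the nearest peak in replicate 3 was another, near MSBP and CG15916, with 1.47 at 2.16 kb. For Rop a peak near ens scored 2.43, 2.47 and 2.88. The other 10 unlisted genes had no peak within 10 kb in any replicate. Snap25 was the farthest in each replicate, with the nearest peak 423 or 424 kb away. The pair stnA and stnB lay 161 kb from a peak in every replicate, and Syt4 reached 175 kb in replicate 2 only.

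**Figure D4:**
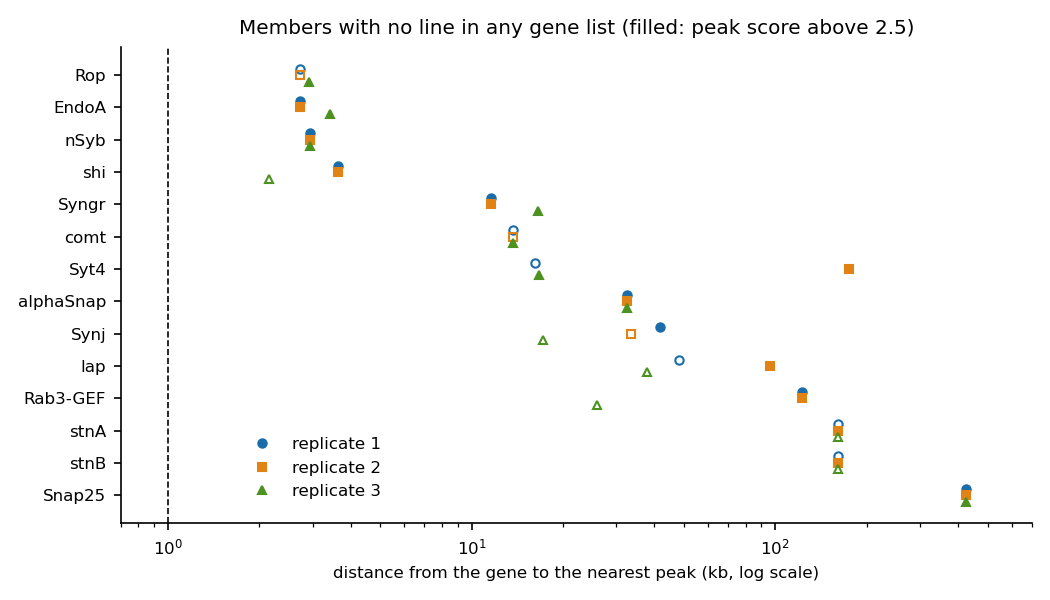
Distance from each of the 14 genes without a line to the nearest peak (x axis, kb, log scale) in replicates 1, 2 and 3, filled where that peak scored above 2.5, with the 1 kb window dashed. Rop, EndoA, nSyb and shi have a peak within 5 kb, and the others lie between 11.6 and 424 kb away.

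A list of 34 further genes of the same pathway, picked by role, was looked up in the same way. Of these, 10 (29.4%) were called, against 9.74% of all annotated genes, and 20 had no line. Their median length was 5868 bp, against 1710 bp for all annotated genes, and the part that length plays here was not tested. The split by role was 5 of 11 genes of the active zone and priming, 0 of 9 SNARE and disassembly genes, 1 of 3 synaptotagmin-like genes and 4 of 11 endocytosis genes. All 9 SNARE and disassembly genes were under 5 kb, while the 5 called active zone and priming genes spanned 21838 to 53808 bp. Of the uncalled ones in that role, unc-104 (21169 bp) and Cadps (40923 bp) were also long. The called endocytosis genes spanned 3578 bp (AP-1-2beta) to 47597 bp (sky), and Hsc70-4, with 3928 bp, was also under 5 kb. Syx4, a SNARE gene, scored 2.57, 2.96 and 2.5, and so missed the call in replicate 3 only. The 4 highest genes of the wider list had higher means than any of the 13 called genes above. The calcium channel gene cac, whose product triggers release, scored 4.5, 4.44 and 4.52 (mean 4.49 ± 0.0416, SD, n = 3). RhoGAP100F, the fly Syd-1 that starts active zone assembly, scored 4.25, 4.58 and 4.55. Spn, or spinophilin, scored 4.39, 4.47 and 4.32, and Liprin-gamma scored 4.34, 4.42 and 4.41. The other called genes were Tomosyn, an inhibitor of SNARE assembly, with a mean of 3.35, Esyt2 with 2.84, the adaptor subunit AP-1-2beta with 2.97, the clathrin uncoating chaperone Hsc70-4 with 3.74, its cofactor aux (auxilin) with 3.65, and the Rab regulator sky with 3.32.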

How the data were processed

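The deposited files hold, for each replicate, peaks with a score and a false discovery rate (FDR), and gene symbols with a score. The authors made these scores with the damidseq pipeline (log2 ratio of Bsh:Dam to Dam), find_peaks (FDR below 0.01, min_quant 0.9) and peaks2genes (1 kb), and the submitters' processing notes name FastQC 0.11.9. Peaks were called per replicate. Aligner settings and genome build are not given in the sources used here.

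The 3 replicates form 1 group, and Dam-only libraries were not analysed here. Gene symbols were looked up in RefSeq (assembly Release 6 plus ISO1 MT), current symbols first and then older ones that point to 1 gene. All 34 genes matched. In replicates 1, 2 and 3, 2131, 2100 and 2178 symbols were current, and 604, 594 and 613 were older. Of the symbols without a match, 375, 378 and 391 had the form of transcript names, and 19, 21 and 24 did not. The listed score was found within 1 kb of the gene for 99.9% of lines in each replicate, and for 7.14% to 8.35% with genes shifted by 50000 bp, so gene spans were used for distances.

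Computations used Python 3.11.15, numpy 2.4.6 and pandas 2.3.3. The search for peaks by position was tested on simulated peaks planted in the middle of genes. Calling from the gene lists by symbol was not part of that test. The genes, roles and lists were chosen with earlier results of these data known. All 34 genes are accounted for by name, with values for every listed one, and called genes of the wider list are named. Alternatives changed the score threshold, the FDR, the number of replicates, the window, the symbols and the overlap, and 2 of them were added after seeing the data. Since the annotation holds no strand, gene borders replaced gene starts. No sequence was used.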

Additional observations from a re-analysis of the deposited data

How the results depend on the processing

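Of the 13 called genes, 9 remained above a score of 3 (without brp, Rbp, Dap160 and Eps-15; 6.22% of all genes) and 9 with an FDR below 0.001 (without Rbp, Rab3, Syn and Eps-15; 7.57% of all genes). Counting only peaks near no other gene left 7, and 3.94% of all genes. Leaving out replicate 3 gave 16, adding Syx1A, Sytbeta and Csp, with 11.4% of all genes. Leaving out replicate 1 or 2 gave 13, with 9.97% and 9.95% of all genes. Gene spans with or without 1 kb, current symbols only, and the same percentile of each list in place of 2.5 (chosen after seeing the data) gave the same 13 genes, with 7.53% to 10.4% of all genes.

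SNARE and fusion genes numbered 2 at any listed score, in at least 2 replicates, in at least 1 replicate and with spans widened by 5 kb, 0 with peaks near no other gene, and 1 to 2 without 1 replicate. Synaptotagmins numbered 2 at any score, in at least 2 replicates and with 5 kb, 4 in at least 1 replicate, and 1 to 2 without 1 replicate. Endocytosis genes numbered 0 above a score of 3 and near no other gene, 1 with an FDR below 0.001 and 4 with 5 kb. Active zone genes numbered 4 above a score of 3, 4 with an FDR below 0.001 and 4 near no other gene. They numbered 7 at any listed score and in at least 1 replicate, and 6 under the remaining settings. Vesicle-associated genes numbered 1 with an FDR below 0.001 and 1 near no other gene. With 5 kb, a window chosen after seeing the data, 17 of the 34 and 18.3% of all genes were called. At any listed score 17 of the 34 were called, in at least 2 replicates 16 and in at least 1 replicate 19. Of all annotated genes, 13.2%, 11.8% and 13.6% were called under these settings, in the same order.

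A reciprocal overlap of 50% gave 74.5% of peaks shared, against 72.7% of all peaks. Leaving out 1 replicate gave 79.4% to 92.1%, but a peak then needed a match in only 1 other list. A peak within 1 kb of a border was found in 9 genes in place of 4 holding one. With the mean over all lines in place of the highest score, 7 of 17 gene values moved by over 1 SD. A mean over lines cannot exceed the highest line, so only downward moves were possible. Genes with a single line in each list could not move. What set the size of these shifts was not tested. Leaving out 1 replicate moved none of 51 values by over 1 SD. With 3 replicates the mean cannot move that far, so this count says nothing about stability. Replicates form 1 group, so no paired analysis was possible because there is no second group.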

Other observations

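Both genes on chromosome 4, unc-13 and Syt7, were called in every replicate. This small chromosome holds 18, 22 and 23 peaks in replicates 1, 2 and 3, and 15 of its 114 annotated genes (13.2%) were called. With lengths of 44508 bp (unc-13) and 27797 bp (Syt7), the pair falls in length classes where 59.2% and 38.3% of all genes were called. Elsewhere, called genes numbered 1 of 4 on 2L, 3 of 5 on 2R and 1 of 7 on 3L. On 3R they numbered 5 of 10, and on X 1 of 6. The shares of all annotated genes on these were 7.73%, 9.81%, 9.48%, 9.91% and 12.2%, in the same order. Whether the chromosomes differ was not tested.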
